A study of Saccharomyces cerevisiae with 8 samples.

Results

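Cap-Clip Acid Pyrophosphatase was compared with Tobacco Acid Pyrophosphatase (TAP) as the enzyme that opens the mRNA cap before the 5′ ends of yeast RNA are sequenced. The comparison takes the 2 Cap-Clip and the 2 TAP libraries by the enzyme their labels name, 4 of the 8 libraries of the series. All of them came from Saccharomyces cerevisiae strain BY4741, genotype Mat a; his3delta1 leu2delta0 ura3delta0 met15delta0, at mid-log phase in rich medium at 30 °C. The study used 2 biological replicates, and the RNA of each was dephosphorylated with calf intestinal phosphatase and then split into 4 aliquots. The aliquots received 5 units of Cap-Clip, 5 units of TAP, Decapping Pyrophosphohydrolase, or no enzyme. The question was whether Cap-Clip gives the same start-site shapes, gene totals and levels of mitochondrial and small RNAs as TAP.

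A eukaryotic mRNA begins with a methylated guanosine joined to its first base through a chain of phosphates. The phosphatase removes the free phosphates of uncapped and broken RNA, so that an RNA ligase cannot join them to an oligonucleotide. TAP and Cap-Clip are pyrophosphatases that cut the phosphate chain of the cap and leave the single 5′ phosphate that the ligase needs, so that the first base of a read from a capped RNA marks where that RNA starts. Ends that escape the phosphatase are also read, as the no-enzyme libraries show. Yeast promoters rarely use 1 base only: most genes start at a cluster of neighbouring positions, usually A or G.

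The deposited values are counts of 5′ ends (tags) per base and strand. Cap-Clip replicates 1 and 2 held 1268757 and 8475181 tags, and TAP replicates 1 and 2 held 10739034 and 1747139 tags. Replicate 1 was thus the shallow library with Cap-Clip and the deep one with TAP. Each of 6002 nuclear protein-coding genes had a 5′ window that reached 400 nt before its start codon and 50 nt into its coding region, cut at any upstream coding region on the same strand. The windows took 92.5% and 91.1% of the tags with Cap-Clip, against 91.8% and 92.6% with TAP, while they took 14.4% and 73.0% in the no-enzyme libraries, so that the no-enzyme replicates stood far apart from each other. The strain matched its labels: the MATa genes were measured, the 4 alpha-specific genes had at most 19 tags in any of the 4 libraries, LEU2 and MET17 had 0 tags and URA3 had 1. The allele his3delta1 is an internal deletion that leaves the 5′ end of HIS3, whose window had 228 and 2243 tags with Cap-Clip and 2021 and 282 with TAP. All values are shares of a bulk library, in which a change of 1 RNA and an opposite change of the remainder cannot be told apart. Poly(A) RNA was purified after ligation, so the values of mitochondrial and small RNAs are of molecules that passed this step and not of levels in the cell.

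Over all 9028 features tested (windows, gene bodies and RNA genes), 4 were called at a Benjamini-Hochberg adjusted p under 0.05 by edgeR's quasi-likelihood test, which is 0.0443% of them. These were both mitochondrial ribosomal RNA genes, the window of MOT3 and the window of USO1. USO1 was lower with Cap-Clip and the other 3 were higher. Log2 fold changes are Cap-Clip over TAP throughout, and CPM of genes and windows are counts per 1000000 tags of the TMM-scaled library. Where the 2 Cap-Clip and the 2 TAP libraries do not overlap, the exact permutation p is 0.33, 2-sided, the smallest possible. The share of all features without overlap was not counted, so a lack of overlap alone does not show a difference.

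The large mitochondrial ribosomal RNA, 21S_RRNA, had 279 and 214 CPM in Cap-Clip replicates 1 and 2, against 85.6 and 68.1 CPM in TAP replicates 1 and 2. Both Cap-Clip libraries lay above both TAP libraries, and the log2 fold change was 1.63 ± 0.23 (SE, edgeR adjusted p = 0.00173). The small one, 15S_RRNA, had 32.6 and 22.4 CPM with Cap-Clip and 8.48 and 6.59 CPM with TAP. The groups did not overlap here either, with a log2 fold change of 1.62 ± 0.24 (edgeR adjusted p = 0.00219). The calls did not hold under every setting, although the log2 fold change was never under 1.43. That of 15S_RRNA was lost without TAP replicate 1 (edgeR adjusted p = 0.156) and with libraries thinned to equal depth (0.0703), and that of 21S_RRNA was lost with DESeq2 (adjusted p = 0.899). Both were lost with all 8 libraries in the fit (edgeR adjusted p = 0.0744 for 15S_RRNA and 1.00 for 21S_RRNA) and when only positions with at least 2 tags were counted (edgeR adjusted p = 1 for each).

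Most of these tags lay at 1 base per gene. The mitochondrial RNA polymerase starts transcription at the last base of the 9-base promoter ATATAAGTA, and the called rRNA positions are that base. Position 58008 of the mitochondrial genome, on the plus strand and 1 nt before the annotated 21S_RRNA, had 293 and 1458 tags with Cap-Clip and 768 and 82 tags with TAP. That is 231 and 172 CPM with Cap-Clip and 71.5 and 46.9 CPM with TAP, where CPM of single positions use library totals without TMM. Every Cap-Clip value stood above every TAP value, and the log2 fold change was 1.81 (edgeR over 56453 single positions, adjusted p = 0.00416). Position 6470, on the plus strand and 76 nt before the annotated 15S_RRNA, had 25.2 and 18.3 CPM with Cap-Clip and 6.15 and 4.58 with TAP, a log2 fold change of 1.90 (edgeR adjusted p = 0.00391). The single-position fit called 4 of its 56453 positions (0.00709%), these 2 among them. The study's other libraries also held the 21S_RRNA end, at 15.6 and 76.5 CPM with Decapping Pyrophosphohydrolase and 40.7 and 74.3 without enzyme, the last from 30 and 6 tags.

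The sequences below, from the RefSeq genome of build R64, show all 6 mitochondrial starts with at least 10 tags that fall on the last base of the promoter, with the promoter in capitals. The 2 called starts come first. They share their 9 promoter bases with the other 4, and each line ends 10 bases after the start. Those upstream of tE(UUC)Q and OLI1 were tested and not called. Those upstream of COX1 and on the minus strand were not tested, with under 30 tags over the 6 enzyme-treated libraries.
21S_RRNA, chrM:57989-58018 plus: tattattatatATATAAGTAgtaaaaagta
15S_RRNA, chrM:6451-6480 plus: tatttattattATATAAGTAataaataata
upstream of COX1, chrM:13338-13367 plus: aataagtattgATATAAGTAatagatataa
upstream of tE(UUC)Q, chrM:32198-32227 plus: tttttgtaaatATATAAGTAataaattaag
upstream of OLI1, chrM:46060-46089 plus: tattaatattaATATAAGTAatatatatag
minus strand, chrM:54830-54859 minus: tatttctagatATATAAGTAatagggggag

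The 85779 nt of the mitochondrial genome hold 14 matches to ATATAAGTA on both strands, of which 7 had 0 tags in the 4 libraries. The 2 rRNA starts together had 223 ± 46.6 CPM with Cap-Clip and 64.6 ± 18.5 with TAP (SD, n = 2 each), a ratio of 3.46. The 12 other matches together had 4.90 ± 0.244 CPM with Cap-Clip and 3.69 ± 3.60 with TAP, and these groups overlapped. The largest of them, 644 nt before OLI1, had 2 and 23 tags with Cap-Clip and 30 and 0 tags with TAP, too few to show a difference at this depth.

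No other mitochondrial position was called among those with at least 30 tags over the 6 enzyme-treated libraries, and the rest were not tested. Of 26 mitochondrial positions with at least 10 tags, 11 were the first base of a tRNA, the end left by the tRNA-processing enzyme RNase P. These 11 together had 36.6 ± 1.72 CPM with Cap-Clip and 31.8 ± 13.4 with TAP (SD, n = 2 each), and the 37.8 and 35.4 with Cap-Clip lay between the 41.3 and 22.3 with TAP. Single tRNA ends differed among themselves: that of tS(UGA)Q2 had 3.15 and 1.65 CPM with Cap-Clip and 0.186 and 0.572 CPM with TAP, from 21 tags in all, and its log2 fold change of 2.91 was not called (edgeR adjusted p = 0.547). Ends inside 21S_RRNA had 58.6 ± 18.2 CPM with Cap-Clip and 26.5 ± 3.41 with TAP, without overlap. Ends inside 15S_RRNA had 7.15 ± 0.0735 CPM with Cap-Clip and 3.05 ± 1.08 with TAP, also without overlap. Without enzyme, ends inside 21S_RRNA had 667 and 112 CPM. The whole mitochondrial genome took 0.0385% and 0.0352% of the tags with Cap-Clip and 0.0189% and 0.0128% with TAP (exact permutation p = 0.33, 2-sided, the smallest that 2 against 2 libraries can give).

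**Figure D1:**
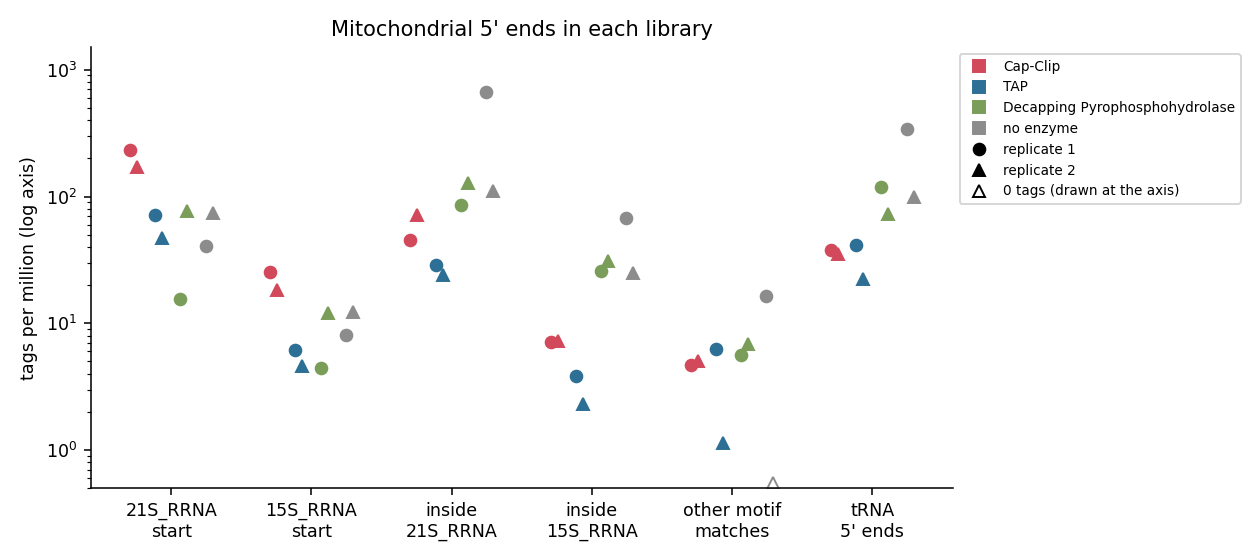
CPM of library totals (log axis) at mitochondrial ends, with 1 point for each of the 8 libraries, coloured by enzyme and shaped by replicate. The 21S_RRNA start has 231 and 172 CPM with Cap-Clip and 71.5 and 46.9 CPM with TAP, while the tRNA ends overlap between these enzymes and are highest without enzyme in replicate 1.

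Of 19 mitochondrial protein-coding genes, 8 had enough tags for the test, none was called, and all 8 had a positive log2 fold change, with a median of 0.50 against -0.07 for the nuclear windows. They are not 8 separate measurements. AI1, AI2, AI3, AI4 and AI5_ALPHA are reading frames in the introns of COX1, which encodes subunit 1 of cytochrome c oxidase, and share its tags. SCEI, the endonuclease in the 21S_RRNA intron, lies inside that gene. COX1 had 21.5 and 18.8 CPM with Cap-Clip and 14.4 and 11.5 CPM with TAP, and its log2 fold change of 0.50 ± 0.20 was not called (edgeR adjusted p = 0.399). OLI1, subunit 9 of the ATP synthase, had 4.77 and 5.17 CPM with Cap-Clip and 4.2 and 6.59 CPM with TAP, which overlap. The 6 mitochondrial tRNA genes tested had a median of -0.09, with 2 positive and 4 negative. The other 11 protein-coding genes and RPM1, the RNA of mitochondrial RNase P, had too few tags.

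Among nuclear small RNAs none was called, where 0.0443% of all features tested were. The genes of small nuclear and nucleolar RNAs together had 0.247% and 0.248% of the tags with Cap-Clip, against 0.248% and 0.235% with TAP. The capped U2 RNA of the spliceosome, LSR1, had 246 and 263 CPM with Cap-Clip and 242 and 261 CPM with TAP, a log2 fold change of 0.03 ± 0.16. U1, SNR19, had 210 and 171 CPM with Cap-Clip and 180 and 194 CPM with TAP, a log2 fold change of 0.02 ± 0.16. For these abundant RNAs the libraries of the enzymes overlapped. SNR7-L and SNR7-S, forms of U5 with a common 5′ end and common tags, had 16.7 and 21.2 CPM with Cap-Clip and 13.9 and 19.8 CPM with TAP. SNR6, the U6 RNA, made by RNA polymerase III, had at most 0.792 CPM in any of the 4 libraries.

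SCR1, which forms the core of the signal recognition particle, had 852 and 631 CPM with Cap-Clip and 678 and 727 CPM with TAP. TLC1, the telomerase RNA, had 59.6 and 69.0 CPM with Cap-Clip and 61.6 and 64.3 CPM with TAP. The TAP values of each lay between the Cap-Clip values. RPR1, the RNA of nuclear RNase P, had 15.9 and 10.3 CPM with Cap-Clip and 9.11 and 8.79 CPM with TAP, and its log2 fold change of 0.33 ± 0.24 was not called (edgeR adjusted p = 0.692). Over 69 small nucleolar RNA genes, which guide the modification of ribosomal RNA, the median log2 fold change was 0.04, with 41 positive and 28 negative, and 5 had an unadjusted p under 0.05. Of the 10 most abundant, SNR86 had the largest log2 fold change, 0.38 ± 0.16, with 108 and 93.4 CPM with Cap-Clip and 81.7 and 68.7 CPM with TAP (edgeR adjusted p = 0.422).

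Of 5037 nuclear 5′ windows tested, 1 was called higher with Cap-Clip (0.0199%) and 1 lower (0.0199%), and 573 had an unadjusted p under 0.05. The called higher window was that of MOT3, a zinc-finger repressor of hypoxic genes, with 111 and 117 CPM with Cap-Clip and 64 and 55.5 CPM with TAP. Its groups did not overlap, at a log2 fold change of 0.92 ± 0.16 (edgeR adjusted p = 0.0205). The call was lost without Cap-Clip replicate 2 (edgeR adjusted p = 0.706), without TAP replicate 1 (0.362) and without TAP replicate 2 (0.879), while the log2 fold change stayed between 0.84 and 1.05.

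The window called lower was that of USO1, a tether for vesicles moving from the endoplasmic reticulum to the Golgi, with 12.7 and 8.38 CPM with Cap-Clip and 21 and 24.7 CPM with TAP. Its groups did not overlap, at a log2 fold change of -1.26 ± 0.24 (edgeR adjusted p = 0.0489). It lies below the mean of 20 CPM set for naming and is given because it was called. Its call was lost without Cap-Clip replicate 2 (log2 fold change -0.79, edgeR adjusted p = 0.963), without TAP replicate 1 (adjusted p = 0.427) and without TAP replicate 2 (adjusted p = 0.516). With the replicate as a block, 3 windows were called higher (GOT1, MOT3 and RPB4) and 10 lower (FAS2, FKS1, MHP1, MLP1, MYO2, SEC31, SPF1, STE6, USO1 and VNX1). Of these 10, 9 have a coding length over 3000 nt.

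The windows of long genes were lower with Cap-Clip as a class. Coding length here runs from the start to the stop codon, introns included. FKS1, the catalytic subunit of the glucan synthase of the cell wall, is 5631 nt long and had 60.4 and 48.0 CPM with Cap-Clip and 94.9 and 96.7 CPM with TAP. The groups did not overlap, but the log2 fold change of -0.88 ± 0.17 missed the threshold (edgeR adjusted p = 0.0530). SEC31, an outer coat protein of COPII vesicles, had 29.4 and 27.6 CPM with Cap-Clip and 51.7 and 48.9 CPM with TAP, with a log2 fold change of -0.85 ± 0.17 (edgeR adjusted p = 0.0530). STE6, the exporter of the mating pheromone a-factor, had 29.4 and 36.6 CPM with Cap-Clip and 58.5 and 67.6 CPM with TAP, with a log2 fold change of -0.84 ± 0.17 (edgeR adjusted p = 0.0846). None of these 3 was called in the fit on the 6 libraries without a block. In each both Cap-Clip libraries were below both TAP libraries. The 3 were named for a low p with same-numbered pairs moving in 1 direction, a choice that favours such a separation. FAS2, the alpha subunit of fatty acid synthase, had 100.98 and 80.4 CPM with Cap-Clip and 154 and 142 CPM with TAP. MYO2, a myosin that carries organelles along actin cables, had 39.8 and 29.8 CPM with Cap-Clip and 58.1 and 59.3 CPM with TAP.

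Across 545 windows of genes up to 500 nt the median log2 fold change was 0.08, and 30.6% were lower with Cap-Clip. The median was 0.03 in 1363 genes of 501 to 1000 nt and -0.04 in 1183 genes of 1001 to 1500 nt. It was -0.14 in 791 genes of 1501 to 2000 nt and -0.26 in 732 genes of 2001 to 3000 nt. In 314 genes of 3001 to 4500 nt it was -0.46, and in 109 longer ones -0.53, where 95.4% were lower. Each class thus had a lower median than the one before it. Over all windows tested the median was -0.07, with 3101 of 5037 negative, and Spearman's rho with coding length was -0.564. This rho is across genes, which share their libraries and are not independent replicates.

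The same difference appears in shares of tags, but its size varied with the libraries compared. Genes over 3000 nt took 1.51% and 1.56% of the window tags with Cap-Clip and 2.01% and 1.78% with TAP (exact permutation p = 0.33, 2-sided, the smallest possible), while Decapping Pyrophosphohydrolase gave 0.858% and 0.860%. For the 423 windows tested in this class the median log2 fold change was -0.47, and 398 were negative. Taken pair by pair the median was -0.25 for Cap-Clip 1 against TAP 1, -0.48 for Cap-Clip 2 against TAP 2, -0.20 for Cap-Clip 1 against TAP 2 and -0.51 for Cap-Clip 2 against TAP 1. All 4 pairs were negative. The replicates of 1 enzyme differed too, by 0.26 between Cap-Clip 1 and Cap-Clip 2 and by 0.04 between TAP 1 and TAP 2, so the Cap-Clip replicates stood about as far apart as Cap-Clip 1 stood from either TAP library. Without Cap-Clip replicate 2 the median of the class was -0.25.

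**Figure D2:**
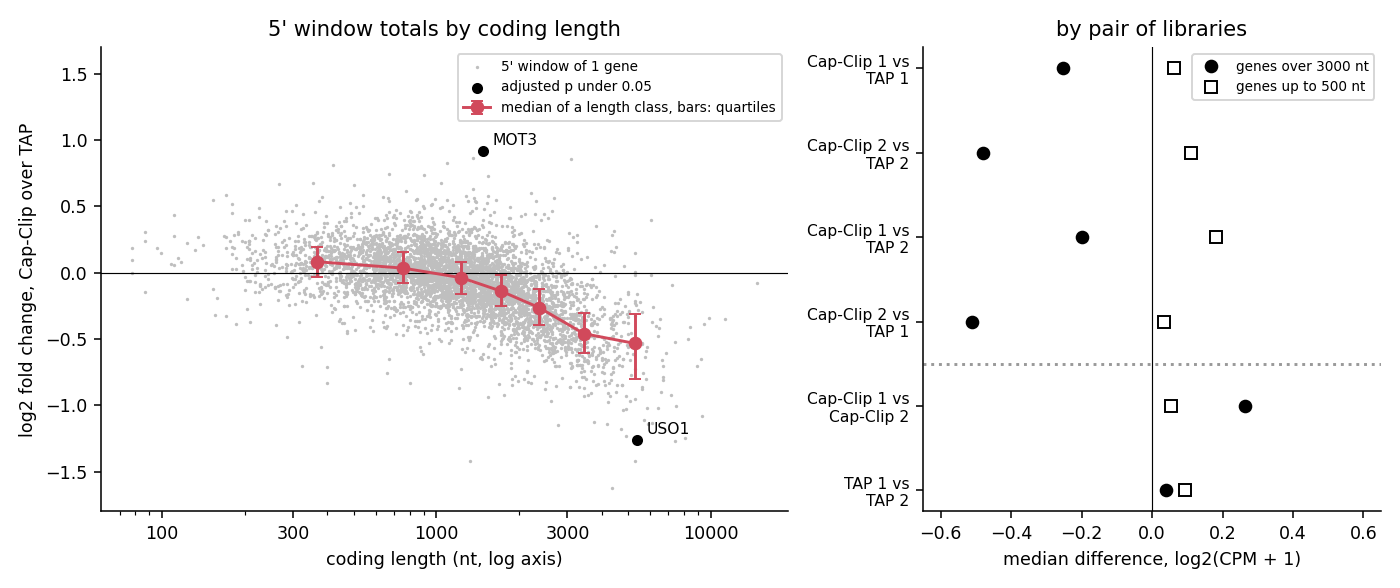
Left, log2 fold change of each 5′ window (Cap-Clip over TAP) against coding length on a log axis, with the median and quartiles of 7 length classes. Right, the median difference in log2(CPM + 1) for each pair of libraries, in genes over 3000 nt and genes up to 500 nt. The median of a class is 0.08 in the shortest genes and -0.53 in the longest, and in genes over 3000 nt all 4 pairs of different enzymes are negative.

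Gene bodies, the coding regions beyond the windows, had positive log2 fold changes more often than negative ones, to a degree that rested on Cap-Clip replicate 2. None of 3867 was called (320 had an unadjusted p under 0.05, and 4 were called with the replicate as a block), the median log2 fold change was 0.18 and 2848 were positive. Without Cap-Clip replicate 2 the median was 0.06, with 1814 positive and 1531 negative. The median was 0.25 in genes up to 500 nt and -0.04 in genes over 4500 nt. Bodies took 4.92% and 6.06% of the tags with Cap-Clip and 5.42% and 4.94% with TAP, so the shares overlapped. Of 137 ribosomal protein gene bodies, 130 were positive, with a median of 0.35. RPL37A, a protein of the large subunit, had 196 and 155 CPM in its body with Cap-Clip and 117 and 98.9 CPM with TAP, a log2 fold change of 0.66 ± 0.17 that was not called (edgeR adjusted p = 0.203). The bodies of RPL24A, RPL24B, RPL31A and RPL31B had log2 fold changes between 0.57 and 0.68 and were not called either, and near-identical copies such as these can exchange reads.

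By function, none of the windows of the gene lists was called. Over all 5037 windows 0.0199% were called higher and 0.0199% lower, a share at which lists of this size would mostly hold none. The 138 ribosomal protein windows had a median of 0.14, with 112 positive and 26 negative, against -0.07 for all windows. Their median coding length was 771 nt against 1242 nt for all windows. All windows of genes of 501 to 1000 nt had a median of 0.03, with 42.6% lower with Cap-Clip. The 10 histone genes, which package DNA and are short, had a median of 0.11. Whether coding length accounts for the medians of the lists was not tested. The 18 glycolysis and fermentation genes had a median of -0.10, with 6 positive and 12 negative, and the 27 ribosome biogenesis genes a median of -0.08, with 9 positive and 18 negative. Translation factors had a median of 0.02, which was -0.03 without TMM scaling, and the 34 proteasome genes were split into 17 positive and 17 negative. The medians were -0.02 for cell wall genes, -0.07 for heat shock and chaperone genes, 0.07 for nuclear respiration genes and 0.08 for MATa genes. Leaving out TMM shifted the median of all windows to -0.11.

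In the 10 most abundant windows the libraries of the enzymes overlapped, and none was called. RPL41B, a short peptide of the ribosome that has a near-identical copy in RPL41A, had 19265 and 9126 CPM with Cap-Clip and 9751 and 18621 CPM with TAP. CCW12, a cell wall mannoprotein, had 19733 and 9103 CPM with Cap-Clip and 7158 and 16356 CPM with TAP. In all 10 windows the shallow library of each enzyme (Cap-Clip 1 and TAP 2) had the higher value and the deep one the lower. The fullest single position held 53955 tags in Cap-Clip replicate 2 and 57150 in TAP replicate 1, close to the number of different barcodes that 8 random nt in the ligated oligonucleotide allow. The 10 fullest positions took 7.67% and 4.07% of the tags with Cap-Clip and 3.57% and 7.37% with TAP.

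Start-site shape was compared in 2230 windows with at least 50 tags in each of the 6 enzyme-treated libraries, each thinned to 50 tags. With Cap-Clip the median window had its mean start -40.8 and -41.0 nt from the start codon in replicates 1 and 2, and with TAP it was -41.0 nt in both. The spread (SD of tag positions) of the median window was 17.3 and 17.7 nt with Cap-Clip and 17.8 and 17.3 nt with TAP. The main position held 30.2% and 29.4% of its tags with Cap-Clip and 29.0% and 30.0% with TAP. The effective number of positions, the exponential of the Shannon entropy of the shares, was 8.46 and 8.63 with Cap-Clip and 8.69 and 8.41 with TAP. On every measure the enzymes overlapped, and the shallow library of each enzyme had the higher main-position share and the smaller spread.

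No window was called for any of these measures by limma with Benjamini-Hochberg adjustment: 0 of 2230 (0%) for the mean position, the spread, the main-position share and the effective number. At an unadjusted p under 0.05 there were 82, 97, 124 and 91 windows for the measures in that order, and with the replicate as a block 10 windows were called for the main-position share and 2 for the effective number. The median difference in mean position, Cap-Clip minus TAP, was 0.022 nt, with 95% of the windows between -5.05 and 4.15 nt. The size of the difference in the median window was 1.18 nt for Cap-Clip 1 against TAP 1 and 1.14 nt for Cap-Clip 2 against TAP 2. It was 1.48 nt between the shallow libraries, Cap-Clip 1 and TAP 2, and 0.785 nt between the deep ones, Cap-Clip 2 and TAP 1. Replicates, a shallow against a deep library, differed by 1.15 nt with Cap-Clip and by 1.08 nt with TAP. The size thus still went with depth after thinning. These comparisons bound the difference: the 95% interval lay within 5 nt of 0 in 1339 of the windows and within 10 nt in 2008. For the main-position share the interval lay within 20 percentage points of 0 in 99.3% of the windows and within 10 points in 63.4%.

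**Figure D3:**
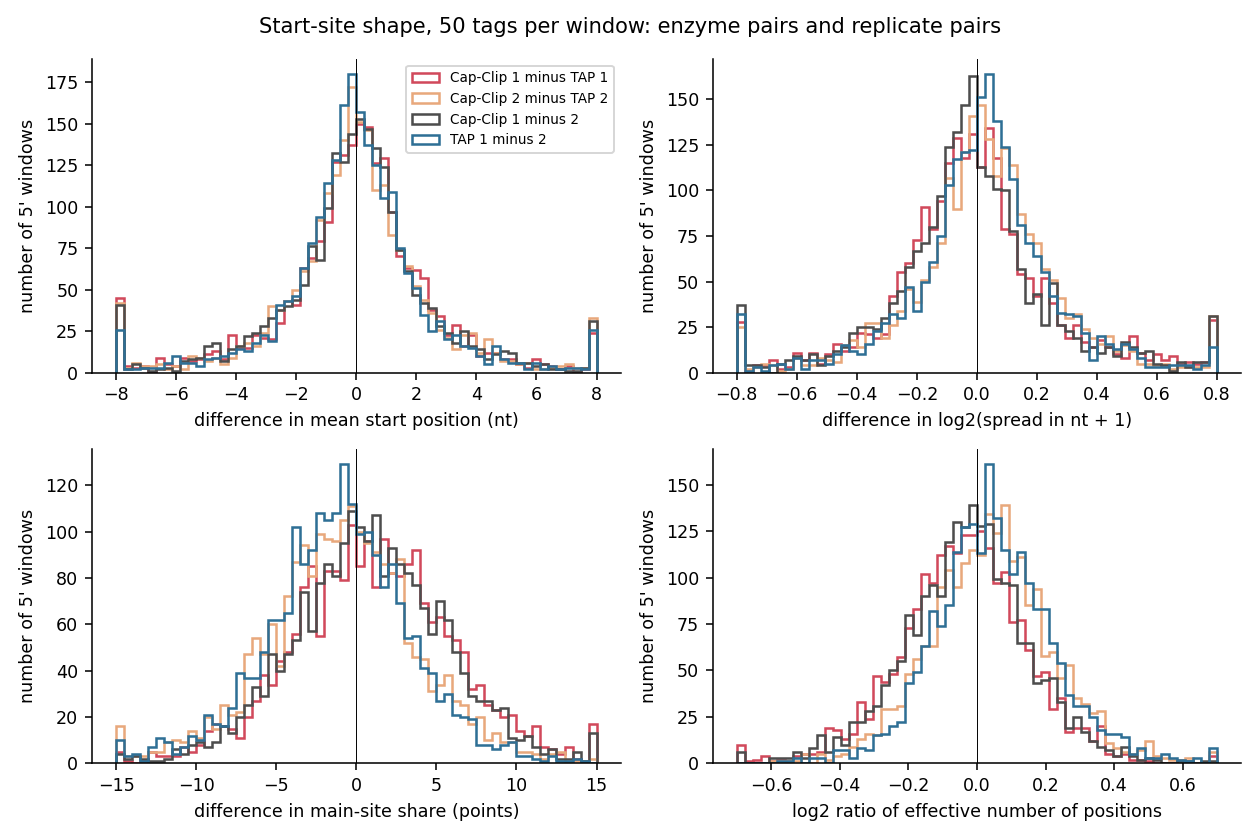
Number of 5′ windows by the difference in each of 4 shape measures, for both pairs of a Cap-Clip and a TAP library with the same number and for the replicates of each enzyme, with values beyond the axis put into the end bins. All 4 curves centre near 0 and have about the same width, and for the main-position share (main-site share) the curves with a shallow library first lie to the right of the others.

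In 1 draw of 50 tags per library, the main position of a window lay within 5 nt in 78.2% of the windows on average between a Cap-Clip and a TAP library, and in 78.0% between replicates of 1 enzyme. It was the same base in 71.4% between enzymes and 71.5% within them. With 200 tags per window the share within 5 nt was 89.2% between enzymes and 89.1% within them, over 804 windows. The pairs of replicates each set a shallow library against a deep one. The pairs of different enzymes that did so too had 77.2% (Cap-Clip 1 and TAP 1) and 79.5% (Cap-Clip 2 and TAP 2) within 5 nt at 50 tags. Replicates had 78.3% with Cap-Clip and 77.7% with TAP. At these numbers of tags, pairs of different enzymes were thus about as alike as replicates. More tags made all pairs more alike, so sampling error at 50 tags could hide small differences. After thinning all 4 libraries to 1268757 tags, positions with at least 5 tags numbered 23503 and 25607 with Cap-Clip and 26833 and 24198 with TAP. Of the 23503 in Cap-Clip replicate 1, 86.0% also had 5 tags in TAP replicate 1, and of the 26833 in TAP replicate 1, 75.4% had 5 in Cap-Clip replicate 1. Between the Cap-Clip replicates these shares were 84.8% of the 23503 and 77.8% of the 25607.

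As 0 of the 2230 windows were called for shape, no class of promoter could hold a called one. The main position began with A in 78.7% of the 2230 windows and with G in 21.3%, and the median difference in main-position share was 0.1 points for A and 0.05 points for G. The motif TATAAA, searched on both strands from 150 to 30 nt upstream of the main position, was found in 26.3% of the windows. The median difference in main-position share was 0.25 points where it was found and 0.05 points elsewhere. In 193 windows with the main position more than 100 and up to 200 nt from the start codon the mean position differed by a median of -0.367 nt, and in 1040 windows at 21 to 50 nt by 0.072 nt.

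Within windows, the share of tags at each position was tested with edgeR's test of differential usage. Of 4624 windows 0 were called (0%, with 100 at an unadjusted p under 0.05 and 2 called with the replicate as a block). Of 51819 positions 3 were called (0.00579%, with 1246 at an unadjusted p under 0.05 and 8 called with the replicate as a block), all lower with Cap-Clip. The 3 called starts are shown with PFD1, which was called in the single-position fit only. The capital marks the start base, with 19 bases before it and 10 after, from the RefSeq genome of build R64.
TRX1, chrXII:232066-232095 minus: ggaacactgtttaaacagtGtggtttccaa
RPS28B, chrXII:673101-673130 plus: aaataagcaaagcataaaaGagcagcaaaa
RPL1A, chrXVI:135728-135757 plus: aacatgtttcattgatattGgacgttacta
PFD1, chrX:88711-88740 plus: agatgagcagatgggaattAaagaactatc

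The TRX1 position, 63 nt upstream of the start codon of a cytoplasmic thioredoxin, held 0.270% and 0.652% of the window's tags with Cap-Clip and 1.83% and 2.20% with TAP. Both Cap-Clip shares were below both TAP shares, at a log2 difference in usage of -1.75 (edgeR adjusted p = 0.0209). The RPL1A position, 43 nt upstream in a gene for a large-subunit protein, held 0.141% and 0.192% with Cap-Clip and 0.551% and 0.721% with TAP, a log2 difference of -1.84 (edgeR adjusted p = 0.0209). The RPS28B position, 11 nt upstream in a gene for a small-subunit protein, held 0.489% and 0.746% with Cap-Clip and 1.61% and 1.57% with TAP, a log2 difference of -1.32 (edgeR adjusted p = 0.0451). All 3 are minor starts of their genes that begin with G, and the main start of each gene was not called. Of the 12582 positions with at least 200 tags over the 4 libraries, 3161 began with G, at a median log2 difference in usage of -0.02. The counts behind the 3 calls were small in the shallow libraries, 2 tags for TRX1 and 9 for RPS28B in Cap-Clip replicate 1. None of the 3 calls was kept when any 1 of the 4 libraries was left out.

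PFD1 encodes a subunit of prefoldin, a chaperone for newly made actin and tubulin. Its position 57 nt upstream had 4 and 48 tags with Cap-Clip and 204 and 40 tags with TAP, which is 1.79% and 3.22% of the window with Cap-Clip and 8.19% and 13.5% with TAP. The groups did not overlap, and the single-position fit gave a log2 fold change of -1.92 (edgeR adjusted p = 0.00391), while the usage test did not call it (log2 difference -1.79, edgeR adjusted p = 0.889). RPS28B was called in the single-position fit as well, with a log2 fold change of -1.60 (edgeR adjusted p = 0.00399).

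Shifts of usage in larger starts were not called. In APE3, which encodes a vacuolar aminopeptidase, the main position 30 nt upstream held 29.4% and 32.5% of the thinned tags with Cap-Clip and 20.5% and 20% with TAP, a difference of 10.7 percentage points (limma adjusted p = 0.202). Over all tags, the position 13 nt upstream held 17.6% and 12.6% with Cap-Clip and 20.9% and 26.4% with TAP, against 30.5% and 31.0% with Cap-Clip and 22.4% and 18.9% with TAP at the main position. The main position was thus the fullest in all libraries but TAP replicate 2. Its sequence, with the start base 30 nt upstream in capitals, runs into a stretch of A.
APE3, chrII:774651-774680 plus: acaattggtagaagaagccAaaaaaaaaaa

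LYS1, the last enzyme of lysine synthesis, had 85.1% and 70.3% of its thinned tags at the main position with Cap-Clip and 61.4% and 59.7% with TAP (limma adjusted p = 0.294). Its window had only 55 tags in Cap-Clip replicate 1, against 575 in Cap-Clip replicate 2 and 610 and 108 with TAP. GRX5, a mitochondrial glutaredoxin, went the other way, with 46.0% and 52.3% with Cap-Clip and 66.3% and 59.5% with TAP (limma adjusted p = 0.202). These genes had groups that did not overlap and were named because their unadjusted p was among the lowest, a choice that favours such a separation. VMA3, a subunit of the vacuolar proton pump, had 3.52% and 4.82% of its tags at a G start 72 nt upstream with Cap-Clip and 7.47% and 7.18% with TAP, a log2 difference of -0.82 (edgeR adjusted p = 0.889).

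**Figure D4:**
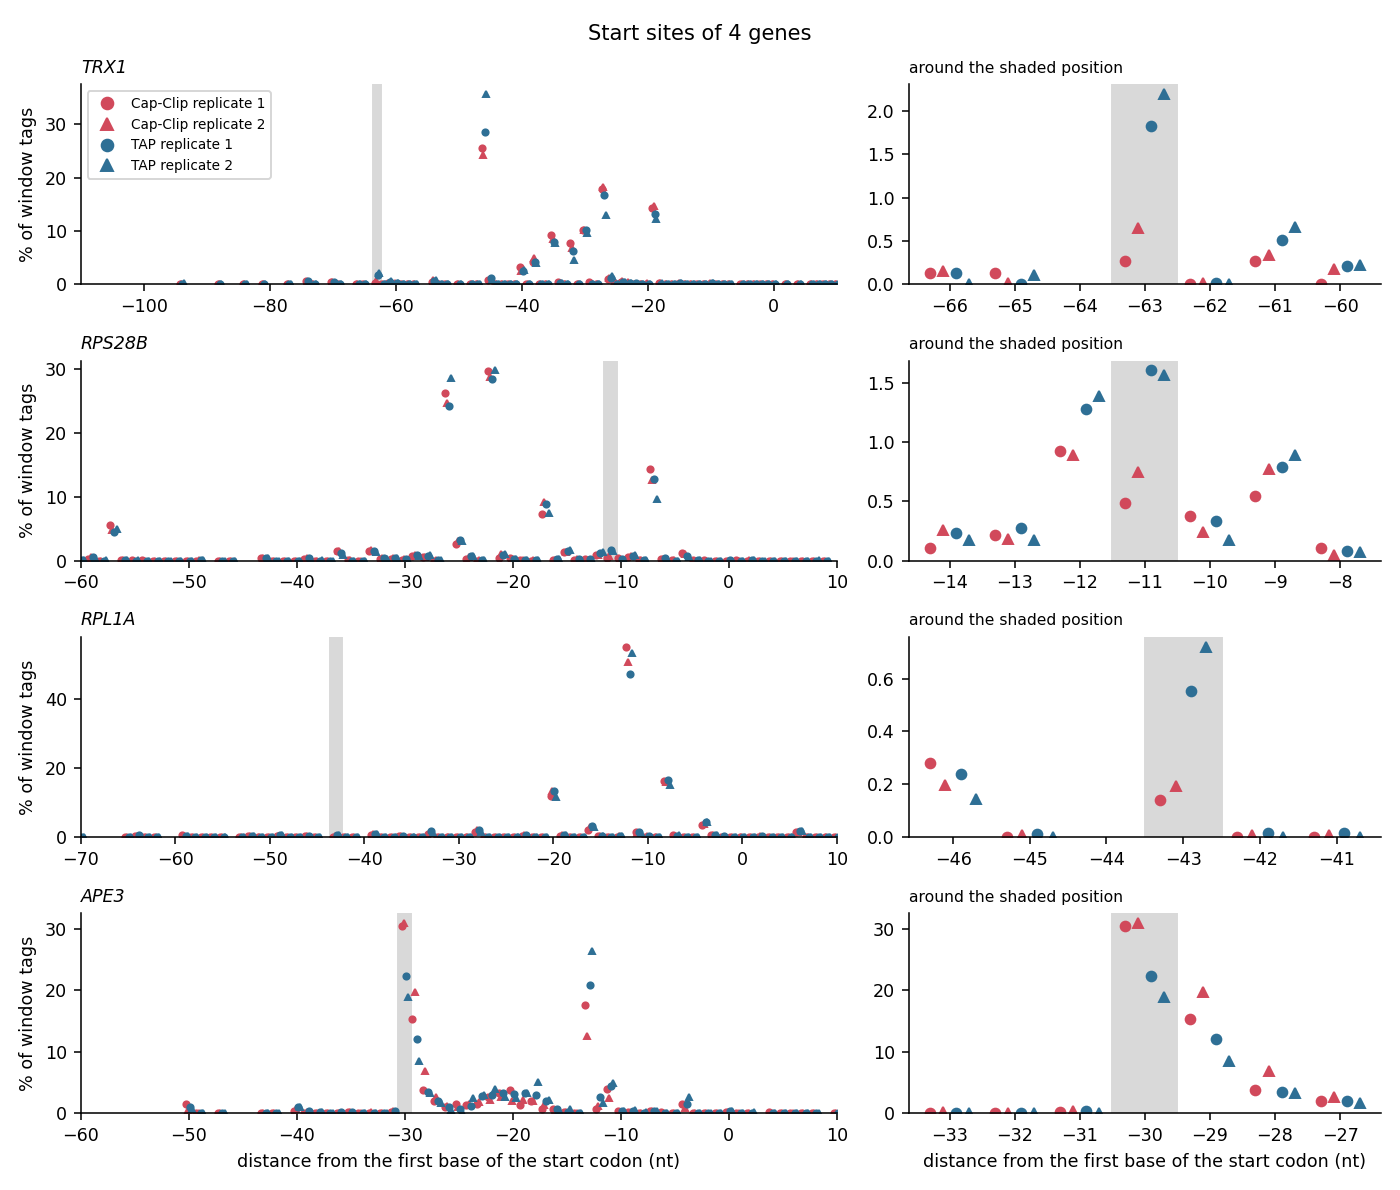
Share of window tags at each position of TRX1, RPS28B, RPL1A and APE3 in the Cap-Clip and TAP libraries, by distance from the start codon, with the shaded position enlarged on the right. The shaded positions of TRX1, RPS28B and RPL1A hold under 3% of the tags in every library and are lower with Cap-Clip. The shaded position of APE3 is its main start and is higher with Cap-Clip.

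Over many starts, usage differed slightly with the G and C content of the first 3 transcribed bases, a grouping chosen after the values were seen. Among 12582 positions with at least 200 tags, the median log2 difference in usage was 0.03 with no G or C in these bases (3352 positions) and 0.00 with 1 (6175 positions). It was -0.03 with 2 (2802 positions) and -0.11 with 3 (253 positions), where 71.9% were lower with Cap-Clip. For the last class the 4 pairs of a Cap-Clip and a TAP library gave medians between -0.23 and -0.10, while Cap-Clip 1 against Cap-Clip 2 gave -0.09 and TAP 1 against TAP 2 gave -0.03. The smallest of the 4 was thus close to the difference between the Cap-Clip replicates. The share of all window tags that began with G was 19.2% and 20.5% with Cap-Clip and 21.2% and 19.4% with TAP, which overlap (exact permutation p = 0.667, 2-sided). With A it was 78.7% and 77.1% with Cap-Clip and 76.4% and 78.5% with TAP.

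**Figure D5:**
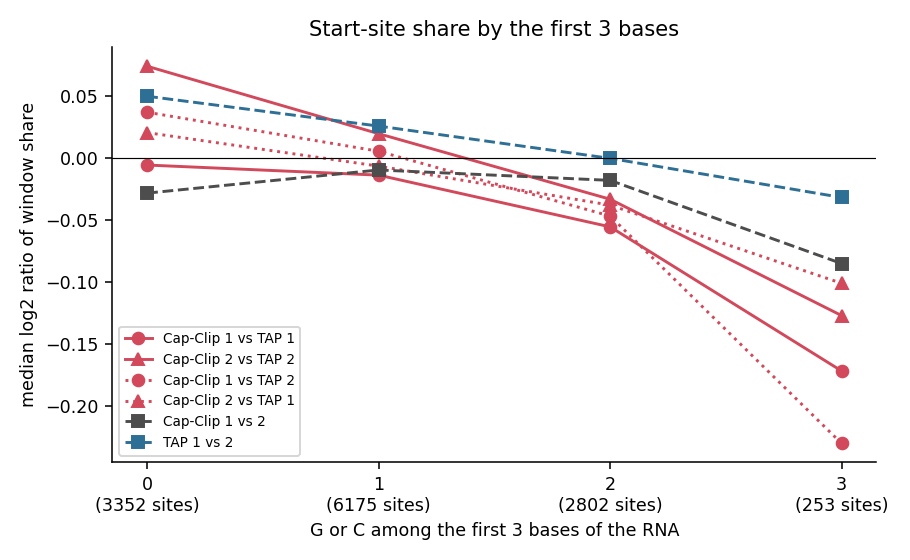
Median log2 ratio of the share of window tags, against the number of G or C among the first 3 transcribed bases, for each pair of a Cap-Clip and a TAP library and for the pairs of replicates. With 3 G or C the pairs of different enzymes lie between -0.23 and -0.10, and the replicate pairs at -0.09 with Cap-Clip and -0.03 with TAP.

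Genes with known alternative or regulated start sites were described as a list of 32, of which 31 matched the annotation and 18 had enough tags for the shape test. None was called on any of the 4 measures, as was so for all 2230 windows. Differences in mean position ran from -6.52 nt (TRP1) to 6.38 nt (FUM1), with a median size of 1.00 nt against 0.877 nt for all windows. In 1 draw of 50 tags, the main position was the same base in all 4 libraries for 9 of the 18, 50.0%, against 54.6% of all 2230 windows. IMD2, an IMP dehydrogenase whose start is chosen by the level of GTP, kept its main start 106 nt upstream in all 4 libraries, with 54.3% and 59.1% of the thinned tags with Cap-Clip and 56.2% and 62.5% with TAP. ADE12, which acts in the synthesis of AMP, kept its main start 91 nt upstream, with 36.1% and 38.3% with Cap-Clip and 36.7% and 40.6% with TAP. HIS4, of histidine synthesis, kept its main start 60 nt upstream, and TPI1, triosephosphate isomerase, kept its 30 nt upstream. These genes overlapped between the enzymes.

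HIS3, a classical gene of promoter studies that here carries the his3delta1 allele, has starts 23 and 10 nt upstream of its start codon. The position 23 nt upstream held 36.4% and 35.3% of all its tags with Cap-Clip and 35.5% and 40.1% with TAP. The position 10 nt upstream held 31.6% and 27.4% with Cap-Clip and 25.2% in each TAP library. The order of these starts was the same in all 4 libraries, and the main-position share of the thinned tags differed by -3.55 points (limma adjusted p = 0.979). HTS1, a tRNA synthetase made in a mitochondrial and a cytoplasmic form, had its main start 14 nt inside the annotated coding region in all 4 libraries. FUM1, fumarase, had its mean start -3.69 and 0.854 nt upstream with Cap-Clip and 2.29 and 7.64 nt upstream with TAP, and the replicates of 1 enzyme differed by about as much as the enzymes. Of totals in the list, 29 windows were tested, the median log2 fold change was -0.05 and none was called. Over all 5037 windows 1 was called higher and 1 lower. URA2 (6645 nt), the first enzyme of pyrimidine synthesis, had 19.1 and 14.1 CPM with Cap-Clip and 24.5 and 22.5 CPM with TAP, a log2 fold change of -0.66 ± 0.21 (edgeR adjusted p = 0.221).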

How the data were processed

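The authors deposited 1 table of counts, whole numbers of tags per position and strand at 1643818 positions. Per the labels' protocols, the ligated oligonucleotide carried 8 random nt, poly(A) RNA was purified after ligation, and reads were 50 nt long. Per the submitters' processing notes, Novoalign and the build R64 (sacCer3) were used. Whether equal barcodes were collapsed is not given in the sources used here. No column of another sample was left out (0 columns).

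Features were the 5′ windows, gene bodies, and 457 noncoding and mitochondrial genes over their span with 200 nt upstream. Totals were fitted with edgeR 4.0.16 (quasi-likelihood, TMM, filterByExpr) in R 4.3.3 on the 6 enzyme-treated libraries, which share 1 estimate of the spread. Usage was tested with diffSpliceDGE on positions with at least 30 tags over those 6 libraries. Shape measures were the mean of 20 thinning draws of 50 tags, tested with limma 3.58.1. Alternatives included DESeq2 1.42.0. All adjusted p are Benjamini-Hochberg over all features of a test, 2-sided, at 0.05, and shares were compared with exact permutation tests. The fits were also run on simulated libraries with set changes, where the noise was a fixed setting and not estimated from these replicates. That run does not show how often the fits err on these libraries.

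With 2 libraries per enzyme, p-values of the fits measure only the spread between replicates of the 6 enzyme-treated libraries, those with Decapping Pyrophosphohydrolase included. The series' design states that the aliquots of a replicate come from 1 culture, so libraries of the same number are pairs. Their deviations from group means correlated little, at 0.02 between Cap-Clip and TAP, 0.09 between Cap-Clip and Decapping Pyrophosphohydrolase and 0.07 between TAP and Decapping Pyrophosphohydrolase. Genes named were those called, then those with the lowest p whose mean reached 20 CPM and whose same-numbered pairs moved in 1 direction, the 10 most abundant windows, mitochondrial, spliceosomal and other small RNA genes, and members of the lists. The libraries and lists were chosen with earlier results of these data known. The fit of single positions and the classes of coding length were added after the values were seen.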

Additional observations from a re-analysis of the deposited data

How the results depend on the processing

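Counts of calls depended on which libraries estimate the spread. With the fit on the 4 Cap-Clip and TAP libraries alone, 27 windows were called higher and 118 windows of genes over 3000 nt and 83 of other genes lower, along with 6 noncoding and mitochondrial genes, 66 gene bodies, 20 windows and 35 positions of usage, and 3 windows for the main-position share. With all 8 libraries in the fit, 0 windows were called higher, 0 lower, and 0 noncoding and mitochondrial genes and 0 positions of usage were called. With the replicate as a block, pairing libraries of the same number, 3 windows were called higher, 9 of genes over 3000 nt and 1 of another gene lower, with 4 gene bodies, 2 windows and 8 positions of usage, 10 windows for the main-position share and 2 for the effective number. No other call changed under the block, apart from single genes and sites. Of these 366 kept their side of the threshold and 22 passed it with the block but not in the fit on the 6 libraries without it.

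Without TMM, 0 windows were called higher and 3 lower, all of genes over 3000 nt. DESeq2 called 0 higher, 0 lower and 1 noncoding or mitochondrial gene, 15S_RRNA. Without a filter on low counts 2 windows were called higher, 31 of genes over 3000 nt and 1 of another gene lower, and 2 gene bodies. With a window of 200 nt upstream 0 were called higher, and 1 window was called for its spread. Counting only positions with at least 2 tags in a library left 0 windows higher, 0 lower, 0 noncoding and mitochondrial genes and 0 positions of usage. Libraries thinned to equal depth gave 0 windows higher, 0 lower, 1 noncoding or mitochondrial gene and 0 positions of usage. Usage over positions with at least 100 tags called 1 window.

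Leaving out 1 library at a time gave 0 to 1 windows higher, 0 to 13 lower, 1 to 2 noncoding and mitochondrial genes, 0 to 4 windows and 0 to 1 positions of usage, 0 to 9 windows for the main-position share and 0 to 4 for the effective number. The lone library of an enzyme was then assumed to vary like the other groups. The 13 lower windows came without Cap-Clip replicate 1, and all are over 3000 nt. The median log2 fold change of windows over 3000 nt was negative under every alternative, between -0.56 without Cap-Clip replicate 1 and -0.25 without Cap-Clip replicate 2, and -0.38 with the replicate as a block. For 21S_RRNA and 15S_RRNA it was between 1.43 and 2.27 under all of them. The main position fell within 5 nt between enzymes in 78.2% of windows, and this was 71.4% at 0 nt, 85.1% at 10 nt and 89.2% with 200 tags. The causes were not tested.

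Across 388 single genes and sites and all alternatives, 4969 values kept their direction and side of the threshold, 81 passed it and 45 lost it, and 0 changed direction with a call. Depth limits the rare ends: 0 tags in Cap-Clip replicate 1 allow up to 2.36 CPM, and in TAP replicate 1 up to 0.279 CPM, for counting error only.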

Other observations

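The window of GOT1, a Golgi membrane protein that acts in vesicle transport, was not called in the fit on the 6 libraries without a block, with 139 and 130 CPM with Cap-Clip and 93.6 and 71.4 CPM with TAP, and a log2 fold change of 0.66 ± 0.16 (edgeR adjusted p = 0.194). SFG1, a regulator of filamentous growth, had 54.1 and 58.0 CPM with Cap-Clip and 35.7 and 34.6 CPM with TAP, a log2 fold change of 0.68 ± 0.19 (edgeR adjusted p = 0.204). The groups of both genes did not overlap, which their choice by low p and same-numbered pairs moving in 1 direction favours. Neither gene is over 1500 nt long. The body of PUB1, an RNA-binding protein of stress granules, had 31.8 and 51.4 CPM with Cap-Clip and 26.9 and 28.6 CPM with TAP.

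Usage in larger starts that was not called went both ways. TIF6, a factor of large-subunit maturation, had 13.6% and 11.4% of its tags at an A 110 nt upstream with Cap-Clip and 6.40% and 7.16% with TAP. PUP2, a subunit of the proteasome core, had 15.3% and 16.6% at an A 39 nt upstream with Cap-Clip and 24.7% and 26.1% with TAP. LSM5, of a ring that binds RNA 3′ ends, had 4.98% and 7.42% at a G 31 nt upstream with Cap-Clip and 12.1% and 13.4% with TAP. The mean start of QCR6, a subunit of the cytochrome bc1 complex, lay 94.4 and 95.2 nt upstream with Cap-Clip and 99.7 and 100.4 nt with TAP, at a difference of 5.26 nt (limma adjusted p = 0.990).

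In the 100 fullest windows the median main-position share was 53.9% and 46.3% with Cap-Clip and 42.7% and 52.7% with TAP. With counts corrected for the number of barcodes it was 53.8% and 48.4% with Cap-Clip and 47.5% and 53.9% with TAP. The gap between the replicates of 1 enzyme was smaller after the correction, and the enzymes overlapped before and after it. The correction raises high counts most, so it moves the deep libraries more by design. It took the fullest position from 57150 to 134744 tags in TAP replicate 1 and from 20514 to 24605 in Cap-Clip replicate 1. Whether the number of barcodes limited the counts was not tested.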
